A study of Mus musculus with 8 samples.

Results

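The Hoxa cluster is a row of homeobox genes on mouse chromosome 6, and its 10 members described here are Hoxa2, Hoxa3, Hoxa4, Hoxa5, Hoxa6, Hoxa7, Hoxa9, Hoxa10, Hoxa11 and Hoxa13. They were taken from an array table as the probe sets whose annotation names a single gene that is one of these, which gave 1 probe set per gene, or 10 of the 21789 probe sets that carry 1 symbol (19938 genes). Members are given in their order along the cluster, from Hoxa2 at the end next to Skap2 to Hoxa13 at the end next to Evx1.

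RNA of C57BL/6 mouse cells was measured on 8 Affymetrix arrays in 4 groups of 2: cells with an empty vector, with full-length NUP98-HOXA9, with its deletion mutant delFG1, and with its deletion mutant delFG2. NUP98-HOXA9 is a leukaemia fusion that joins NUP98, a nuclear pore protein with many phenylalanine-glycine (FG) repeats, to the DNA-binding homeodomain of HOXA9, and the names of the mutants point to those repeats. The sources used here do not give the kind of cell, the residues removed, the promoter of the vector or the species of the fusion cDNA. The arrays of each group are numbered 1 and 2. Nothing states that they stem from separate cultures, so each p-value measures the spread among these samples alone, and that spread may be technical. Array medians lay between 104 and 107 intensity units and the lowest value of any array between 18.7 and 18.9. All levels of single genes below are log2(intensity + 1), differences are on that scale, and levels are compared between arrays for 1 gene, never between genes. The sums over marker genes are of linear intensity, so the brightest genes of a list weigh most in them.

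HOX proteins are transcription factors that set positional identity in the embryo, and the order of the genes along a cluster follows the order of the body regions in which they act. In blood formation the middle of the Hoxa cluster, from Hoxa5 to Hoxa10, is active in stem and progenitor cells and is shut down as the cells mature. The histone methyltransferase MLL (Kmt2a) keeps these genes active, Polycomb complexes silence them, and HOXA9 acts on DNA together with PBX and MEIS proteins. A persistently active Hoxa cluster is a known feature of acute leukaemias with MLL or NUP98 fusions. The title of the series names MLL as a requirement of the leukaemia driven by NUP98-HOXA9, so the comparisons ask how the cluster stood with the fusion and with each mutant.

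The 5 members with the greatest rise under the full-length fusion have annotated start sites whose upstream 250 bases are printed here, since the CXXC domain of MLL binds DNA with unmethylated CpG dinucleotides and the CpG content differs widely between these genes. The sequences come from RefSeq, build GRCm38.p6, and all lie on the minus strand: chr6:52213068-52213317 for Hoxa3, chr6:52204588-52204837 for Hoxa5, chr6:52208673-52208922 for Hoxa6, chr6:52218574-52218823 for Hoxa7 and chr6:52227371-52227620 for Hoxa9. Each is written 5′ to 3′ and ends at the base before the annotated start, and capitals mark CpG dinucleotides.
Hoxa3: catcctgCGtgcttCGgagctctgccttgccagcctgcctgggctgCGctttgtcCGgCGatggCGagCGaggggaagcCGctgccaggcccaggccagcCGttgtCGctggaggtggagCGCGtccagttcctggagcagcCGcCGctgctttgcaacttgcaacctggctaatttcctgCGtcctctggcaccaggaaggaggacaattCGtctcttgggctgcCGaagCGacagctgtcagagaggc
Hoxa5: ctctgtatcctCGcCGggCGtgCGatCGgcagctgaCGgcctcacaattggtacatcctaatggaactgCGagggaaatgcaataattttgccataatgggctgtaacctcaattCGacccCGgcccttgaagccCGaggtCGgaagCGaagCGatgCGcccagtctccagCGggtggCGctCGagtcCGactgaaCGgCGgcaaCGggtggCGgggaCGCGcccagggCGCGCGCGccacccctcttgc
Hoxa6: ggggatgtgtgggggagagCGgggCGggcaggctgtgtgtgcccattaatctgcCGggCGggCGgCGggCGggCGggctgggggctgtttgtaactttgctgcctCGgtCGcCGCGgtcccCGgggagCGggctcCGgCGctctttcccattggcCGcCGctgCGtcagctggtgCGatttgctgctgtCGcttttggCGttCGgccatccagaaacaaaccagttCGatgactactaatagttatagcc
Hoxa7: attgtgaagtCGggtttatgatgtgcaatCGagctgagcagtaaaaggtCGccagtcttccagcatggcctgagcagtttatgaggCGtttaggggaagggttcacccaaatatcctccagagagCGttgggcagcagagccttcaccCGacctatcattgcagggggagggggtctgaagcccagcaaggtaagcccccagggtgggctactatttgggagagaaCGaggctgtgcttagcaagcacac
Hoxa9: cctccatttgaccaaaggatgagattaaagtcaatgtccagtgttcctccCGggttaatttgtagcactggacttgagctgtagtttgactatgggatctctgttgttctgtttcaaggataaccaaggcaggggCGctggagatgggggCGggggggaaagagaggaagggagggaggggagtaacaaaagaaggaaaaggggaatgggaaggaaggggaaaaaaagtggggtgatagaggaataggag

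The Hoxa5 window held 28 CpG dinucleotides with a GC content of 63.6%, the Hoxa6 window 24 with 65.2%, and the Hoxa3 window 18 with 64.8%. The Hoxa7 window held 7 CpG dinucleotides (54.8% GC) and the Hoxa9 window 3 (49.6% GC). Over 32851 RefSeq promoter windows of the same length the median was 6 CpG dinucleotides (quartiles 2 and 16) and 52.4% GC, so Hoxa5, Hoxa6 and Hoxa3 lay above the upper quartile and Hoxa9 below the median in CpG count. The table held windows for 9 of the 10 members, all but Hoxa4, and for both starts of Hoxa10. Their CpG counts went from 3 at Hoxa9 to 35 at Hoxa13, one of the 3 members that passed in neither fit with the full-length fusion. The annotated start of Hoxa3 lies between those of Hoxa6 and Hoxa7 on the chromosome, so this window is that of a distal Hoxa3 start.

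Short motifs were searched on both strands of the same windows. TGATTNAT, which a HOX protein paired with PBX can bind, was found in 1 of the 10 Hoxa windows, that of Hoxa2, where it lies on the strand opposite the gene from 111 bases before the start, and in 2.82% of all promoter windows. TGACAG, a MEIS motif, was found in 2 of the 10, from 44 bases before the Hoxa2 start on the gene's own strand and from 13 bases before the Hoxa3 start on the opposite strand, and in 15.9% of all windows. TTTATNG, a motif of CDX and posterior HOX proteins, was found in 0 of the 10 and in 9.81% of all windows. The motifs do not overlap one another in these windows, and a match is a description of the letters only.

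The full-length fusion was compared with the empty vector first. In cells with full-length NUP98-HOXA9, the middle of the Hoxa cluster stood above its level in cells with the empty vector: Hoxa5, Hoxa6 and Hoxa7 rose by 4.47-fold, 4.79-fold and 4.43-fold, Hoxa9 by 3.92-fold and Hoxa3 by 2.56-fold. Hoxa10, a posterior gene of blood progenitors, and Hoxa2, the most anterior gene of the cluster measured here, differed by 1.54-fold and 1.36-fold. Hoxa4, in the midst of the risen genes, differed by 1.09-fold, and the most posterior genes, Hoxa11 and Hoxa13, by 1.01-fold and 1.04-fold.

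Hoxa5, a HOX factor of stem and myeloid progenitor cells, had levels of 5.64 and 5.46 with the empty vector, 6.26 and 6.01 with delFG2, 6.98 and 6.79 with delFG1, and 7.60 and 7.82 with the full-length fusion (arrays 1 and 2 in each group). The 4 groups did not overlap and stood in that order. The difference of the full-length fusion from the empty vector was 2.16 (95% interval 1.85 to 2.48), with an adjusted p of 0.00139 by limma.

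Hoxa6, its neighbour, had levels of 6.51 and 6.28 with the empty vector, 7.36 and 7.05 with delFG2, 7.95 and 7.70 with delFG1, and 8.44 and 8.87 with the full-length fusion. The same order held, again with no overlap. The difference between full-length fusion and empty vector was 2.26 (95% interval 1.84 to 2.68, limma adjusted p = 0.00287). Hoxa7, a gene active together with Hoxa9 in MLL-rearranged leukaemia, had levels of 6.79 and 6.93 with the empty vector, 7.53 and 7.20 with delFG2, 8.37 and 8.004 with delFG1, and 9.01 and 9.002 with the full-length fusion. Its groups did not overlap either, and it differed by 2.15 (95% interval 1.79 to 2.51, limma adjusted p = 0.00276). Hoxa5, Hoxa6 and Hoxa7 kept this call when any 1 of the 8 arrays was left out, with adjusted p-values up to 0.0247, 0.0404 and 0.0357.

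Hoxa9, the gene whose human counterpart is part of the fusion, had levels of 7.56 and 7.34 with the empty vector, 8.06 and 7.59 with delFG2, 8.40 and 7.93 with delFG1, and 9.41 and 9.43 with the full-length fusion. The empty-vector arrays were lowest and the full-length arrays highest, while the ranges of the mutants overlapped each other. The full-length arrays exceeded those of the empty vector by 1.97 (95% interval 1.52 to 2.42, limma adjusted p = 0.00976). Whether this probe set also reads the introduced fusion RNA, which the full-length and both mutant groups carry and the empty-vector group does not, was not tested.

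Hoxa3, an anterior gene of the cluster, had levels of 5.51 and 5.58 with the empty vector, 6.03 and 5.55 with delFG2, 6.44 and 6.32 with delFG1, and 6.72 and 7.08 with the full-length fusion. The full-length arrays were highest, and 1 of the delFG2 arrays lay between those of the empty vector. The difference of the full-length fusion from the empty vector was 1.36 (95% interval 0.97 to 1.75, limma adjusted p = 0.0261). The calls of Hoxa3 and Hoxa9 rested on both arrays of the groups compared. Without either empty-vector array or either full-length array, the limma adjusted p was 0.0976 to 0.220 for Hoxa3 and 0.0692 to 0.104 for Hoxa9. Hoxa3 also missed the threshold without the block after quantile normalisation (limma adjusted p = 0.0572) and without the intensity trend (0.0797), and kept its call with the block.

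The numbers 1 and 2 pair the arrays across groups, as the processing section sets out, so a limma fit with the number as a block stands beside the fit without it wherever a call differs. Hoxa10 had levels of 5.91 and 5.95 with the empty vector, 6.10 and 5.91 with delFG2, 6.06 and 6.04 with delFG1, and 6.62 and 6.49 with the full-length fusion. The full-length arrays stood above all others, and the other 3 groups lay close together. The difference from the empty vector, 0.63 (95% interval 0.40 to 0.85), had a limma adjusted p of 0.0785 without the block and 0.00326 with it. Hoxa2 had levels of 5.40 and 5.40 with the empty vector, 5.51 and 5.37 with delFG2, 5.68 and 5.43 with delFG1, and 5.82 and 5.88 with the full-length fusion. Again the full-length arrays were the highest, and the limma adjusted p of the difference of 0.45 was 0.179 without the block and 0.0135 with it. With the block, the Hoxa10 call was lost without full-length array 1 (adjusted p = 0.0549), and the Hoxa2 call without empty-vector array 1 (0.116) or full-length array 2 (0.167).

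Hoxa4, an anterior gene known to act in blood progenitors as well, had levels of 6.76 and 6.82 with the empty vector, 6.81 and 6.82 with delFG2, 6.89 and 6.94 with delFG1, and 6.83 and 7.01 with the full-length fusion. The 8 values lay within a narrow span, and the difference between full-length fusion and empty vector was 0.13 (95% interval -0.12 to 0.37). Hoxa11, which patterns limb and urogenital tract, ranged from 5.17 to 5.30 over the 8 arrays with overlapping groups, and its difference was -0.01 (95% interval -0.16 to 0.14). Hoxa13, the last gene of the cluster, ranged from 5.92 to 6.13, again with overlap, and differed by 0.06 (95% interval -0.16 to 0.28). These intervals leave out a rise of the size seen for Hoxa3 or the genes from Hoxa5 to Hoxa9. The Hoxa11 probe set lay among the dimmest 25% of all probe sets, so a change there could be understated.

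**Figure D1:**
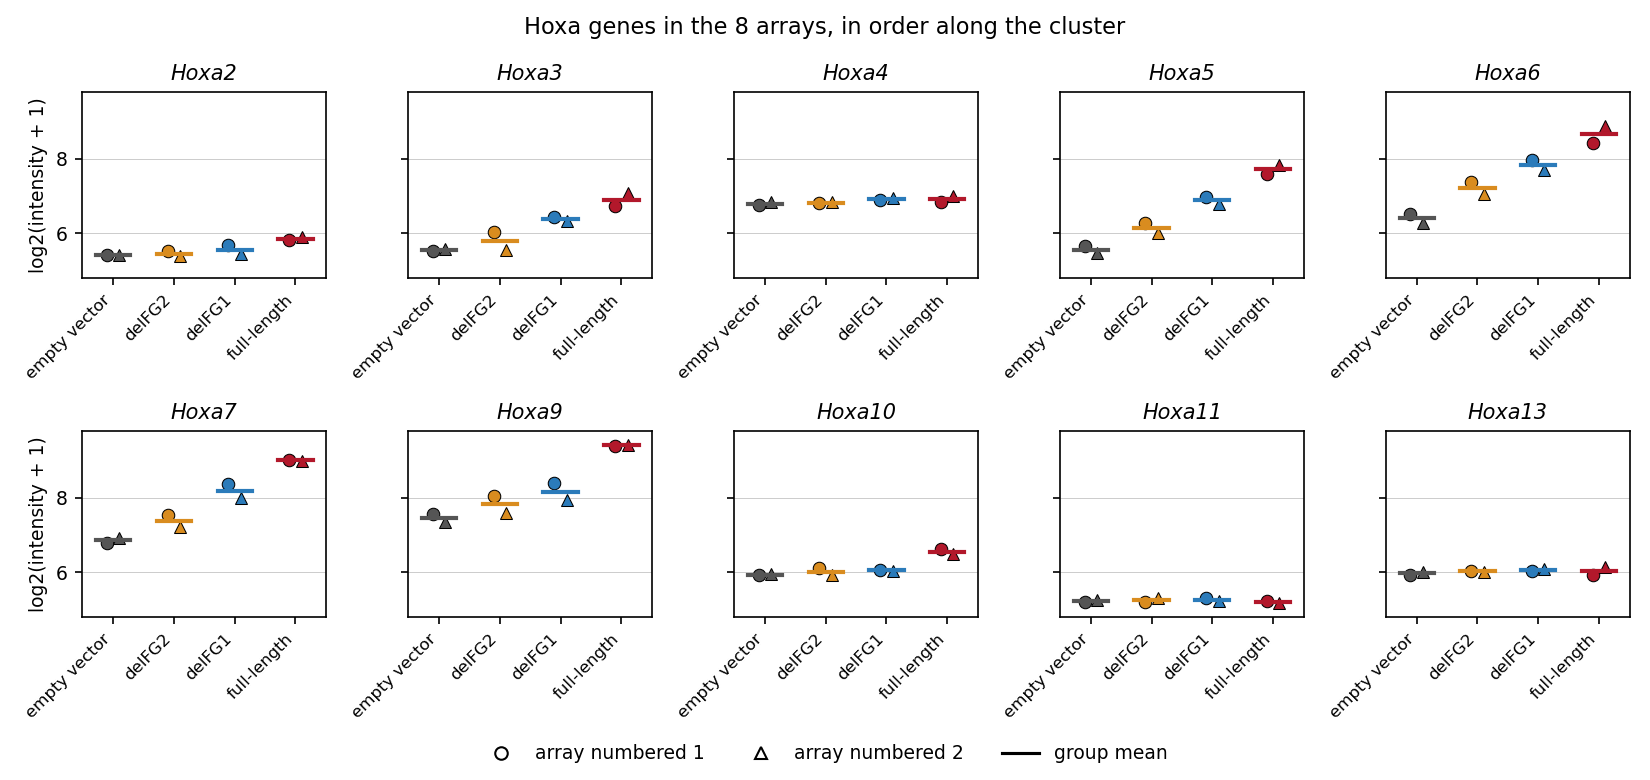
Level of each Hoxa gene on each array, as log2(intensity + 1) on the vertical axis, in 1 panel per gene in cluster order with the 4 groups along the horizontal axis. Circles and triangles are the arrays numbered 1 and 2, and lines are group means. For Hoxa5, Hoxa6 and Hoxa7 the groups form 4 separate steps, from the empty vector through delFG2 and delFG1 to the full-length fusion, while the 8 Hoxa11 values lie between 5.17 and 5.30.

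In all, 5 of the 10 members were called higher under the full-length fusion in this comparison without the block (Hoxa3, Hoxa5, Hoxa6, Hoxa7 and Hoxa9), against 0.101% of all probe sets, and 7 with the block, which adds Hoxa2 and Hoxa10, against 2.18%. None was called lower in either fit. The 2 groups did not overlap, with the full-length arrays higher, for 8 of the 10 members, against 23.4% of all probe sets. The median difference was 0.99 over the members and 0.02 over all probe sets. Ranked among all 21789 probe sets from the greatest rise, Hoxa6 stood at place 4, Hoxa5 at 5, Hoxa7 at 6, Hoxa9 at 8, Hoxa3 at 17, Hoxa10 at 122 and Hoxa2 at 284.

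**Figure D2:**
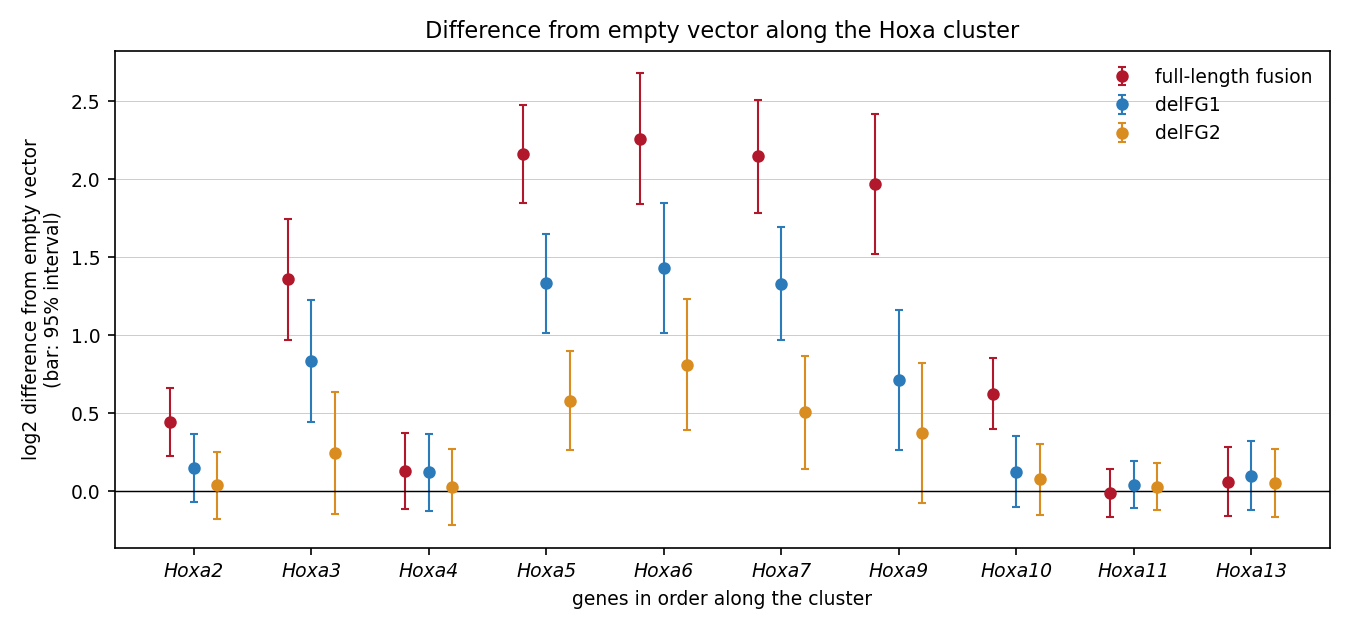
Log2 difference from the empty vector for each Hoxa gene in cluster order, with 95% intervals of the limma fit without the block, for the full-length fusion, delFG1 and delFG2 (2 arrays per group). Hoxa5, Hoxa6 and Hoxa7 differ by 2.15 to 2.26 with the full-length fusion, by 1.33 to 1.43 with delFG1 and by 0.51 to 0.81 with delFG2.

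Next, delFG1 was compared with the full-length fusion. Hoxa9 was lower with delFG1 by 2.38-fold, and its numbered arrays differed by -1.01 and -1.502. Whether its probe set also reads the fusion RNA, which both of these groups carry, was not tested. Hoxa5, Hoxa6 and Hoxa7 were lower by 1.78-fold, 1.78-fold and 1.76-fold, Hoxa3 by 1.44-fold, Hoxa10 by 1.41-fold and Hoxa2 by 1.23-fold. Without the block 0 of the 10 members passed the limma threshold, against 0.00918% of all probe sets called lower, although 7 members had an unadjusted p under 0.05 in either fit, against 2.07% of all probe sets without the block and 4.07% with it. With the block Hoxa9 alone passed, against 0.0551%: its difference of -1.25 (95% interval -1.70 to -0.81 without the block) had a limma adjusted p of 0.311 without the block and 0.00532 with it. Without full-length array 2 the adjusted p of Hoxa9 with the block was 0.0574. Hoxa5, with a difference of -0.83, did not pass with the block (adjusted p = 0.0502), Hoxa7 with -0.82 had 0.0664, Hoxa10 with -0.50 had 0.183, and Hoxa6 with -0.83 had 0.199. For 7 of the 10 members both delFG1 arrays lay under both full-length arrays, against 12.4% of all probe sets. Hoxa4, Hoxa11 and Hoxa13 overlapped, with differences between -0.01 and 0.05. From the greatest fall, Hoxa9 ranked 3 of all probe sets, Hoxa6 9, Hoxa5 10 and Hoxa7 12.

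The delFG2 mutant was compared with the full-length fusion in the same way. Hoxa5 was lower by 2.99-fold and Hoxa7 by 3.12-fold, and both passed without the block: the differences were -1.58 (95% interval -1.89 to -1.26, limma adjusted p = 0.0114) and -1.64 (95% interval -2.003 to -1.28, limma adjusted p = 0.0141). Hoxa9 was lower by 3.02-fold, a difference of -1.60 with a limma adjusted p of 0.0625 without the block and 0.000332 with it. Hoxa6 was lower by 2.73-fold, a difference of -1.45 (0.0693 without the block and 0.00425 with it, both limma adjusted p-values). Hoxa3 (-1.11) and Hoxa10 (-0.55) passed only with the block, at limma adjusted p-values of 0.0120 and 0.0387, against 0.210 and 0.574 without it, and Hoxa2 (-0.41) passed in neither fit. Thus 2 of 10 members were called lower without the block, against 0.0275% of all probe sets, and 6 with it, against 0.17%. For 8 of 10 the arrays did not overlap and were lower with delFG2, against 14.1%. In this comparison Hoxa7 ranked 3 from the greatest fall of all probe sets, Hoxa9 4, Hoxa5 5, Hoxa6 6, Hoxa3 10 and Hoxa10 51.

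The calls of Hoxa5, Hoxa7 and Hoxa9 in delFG2 cells with the block held when any 1 array was left out, at adjusted p-values up to 0.0211, 0.0241 and 0.0211. Without the block, Hoxa5 was lost without either full-length or either delFG2 array (adjusted p 0.0673 to 0.167), and Hoxa7 was lost without any of these or either empty-vector array (0.0534 to 0.186) or without the intensity trend (0.0664). With the block, Hoxa6 was lost without delFG2 array 1 or 2 (0.0507 and 0.0944), Hoxa3 without full-length array 2 (0.182) or delFG2 array 2 (0.174), and Hoxa10 without any full-length or delFG2 array (0.166 to 0.415).

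**Figure D3:**
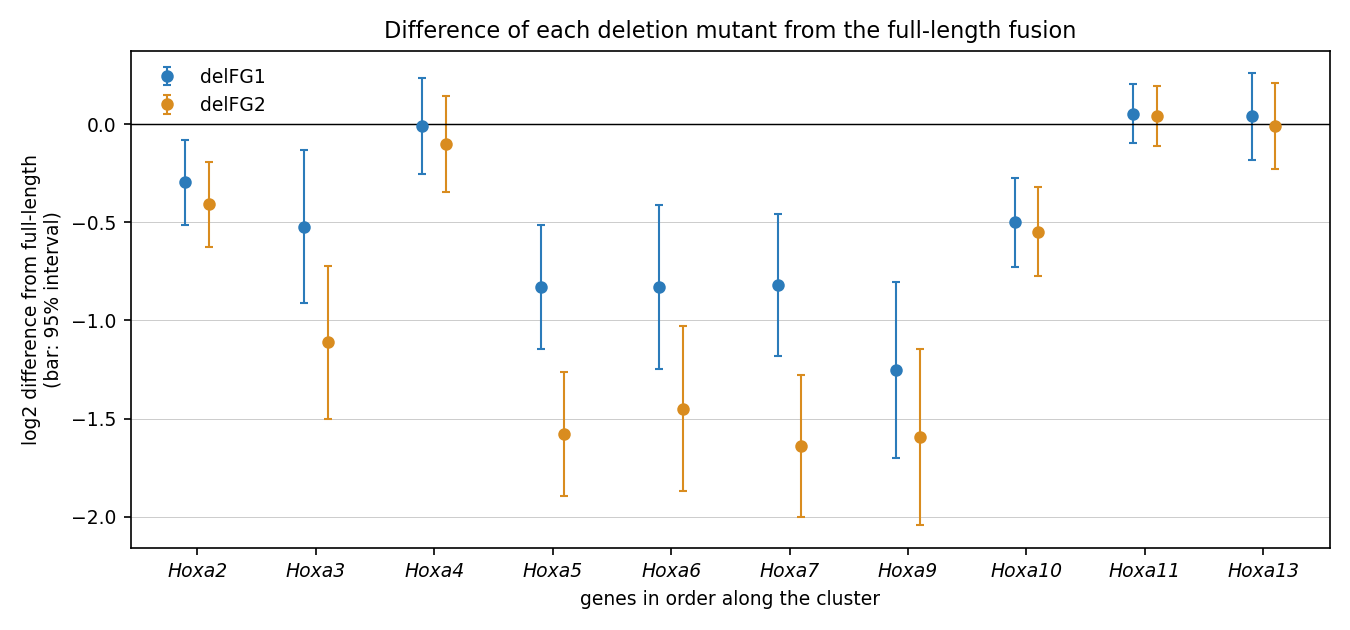
Log2 difference of delFG1 and delFG2 from the full-length fusion for each Hoxa gene in cluster order, with 95% intervals of the limma fit without the block (2 arrays per group). The delFG2 values of Hoxa5, Hoxa6, Hoxa7 and Hoxa9 lie between -1.64 and -1.45, the delFG1 values between -1.25 and -0.82, and both mutants lie near 0 for Hoxa4, Hoxa11 and Hoxa13.

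Set against the empty vector, whose arrays also served the first comparison, the delFG1 cells had higher levels of the middle Hoxa genes. Hoxa5, Hoxa6 and Hoxa7 exceeded the empty vector by 2.52-fold, 2.70-fold and 2.51-fold, at limma adjusted p-values of 0.0207, 0.0318 and 0.0298. Hoxa3 (0.84) and Hoxa9 (0.72) passed only with the block, at 0.0100 and 0.00661 against 0.138 and 0.263 without it. Hoxa10 (0.12) and Hoxa2 (0.15) passed in neither. The count of members called higher was 3 of 10 without the block, against 0.0872% of all probe sets, and 5 of 10 with it, against 1.94%. The groups did not overlap for 9 of 10, with delFG1 higher, against 24.6% of all probe sets. Without the block, the call of Hoxa5 was lost without either empty-vector array or delFG1 array 1, that of Hoxa7 also without either full-length array, and that of Hoxa6 without any of the empty-vector, full-length or delFG1 arrays, with adjusted p-values up to 0.206, 0.292 and 0.335. Without the intensity trend of limma 0 of the 10 members passed, where 5 of all 21789 probe sets did, against 28 with the trend. The limma adjusted p-values of Hoxa5, Hoxa6 and Hoxa7 were then 0.0537, 0.0679 and 0.0537. With the block these 3 calls held without any 1 array, at up to 0.00186, 0.00310 and 0.00538. There, Hoxa3 was lost without empty-vector array 1 (0.0657) or delFG1 array 1 (0.0694) and Hoxa9 without delFG1 array 1 (0.122).

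The delFG2 cells stood nearer to the empty vector. Hoxa6 was 1.75-fold and Hoxa5 1.497-fold above it, Hoxa7 1.42-fold, Hoxa9 1.30-fold and Hoxa3 1.19-fold. By limma 0 of 10 members passed without the block, against 0.00459% of all probe sets called higher, and 0 with it, against 0.106%. The unadjusted p was under 0.05 for 3 members without the block and 4 with it, against 4.43% and 10.8% of all probe sets. The lowest adjusted p with the block was 0.0615, for Hoxa6. For 5 of 10 the delFG2 arrays lay above both empty-vector arrays (Hoxa5, Hoxa6, Hoxa7, Hoxa9 and Hoxa13), against 16.3% of all probe sets. The intervals of the differences were 0.39 to 1.23 for Hoxa6, 0.27 to 0.90 for Hoxa5, 0.15 to 0.87 for Hoxa7 and -0.07 to 0.82 for Hoxa9, all with the upper bound under the rise seen with the full-length fusion.

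The mutants were then compared with each other. Hoxa7 was lower with delFG2 than with delFG1 by 1.77-fold and Hoxa5 by 1.68-fold, with differences between same-numbered arrays of -0.84 and -0.80 for Hoxa7 and -0.72 and -0.78 for Hoxa5. Without the block 0 of 10 members passed by limma, as did 0% of all probe sets, and 4 had an unadjusted p under 0.05, against 3.13% of all probe sets. With the block Hoxa7 (adjusted p = 0.0258) and Hoxa5 (0.0342) passed, 2 of 10, against 0.133% called lower. Both calls depended on single arrays: Hoxa5 was lost without any delFG1 or delFG2 array (0.0636 to 0.414), and Hoxa7 without delFG1 array 1, either delFG2 array or either full-length array (0.0750 to 0.486). Hoxa6 (-0.62), Hoxa3 (-0.59) and Hoxa9 (-0.34, 95% interval -0.79 to 0.11) passed in neither fit. For 6 of 10 members the arrays did not overlap and were lower with delFG2, against 15.3%.

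The order of the group means was empty vector, delFG2, delFG1, full-length fusion for all members but Hoxa11 and Hoxa13. For Hoxa4 the last step was unsettled: delFG1 differed from the full-length fusion by -0.0076, and by 0.0090 after median centring. The first step was unsettled for Hoxa2, Hoxa3, Hoxa4 and Hoxa10. In the arrays numbered 2, delFG2 differed there from the empty vector by -0.031, -0.033, -0.0006 and -0.038. Hoxa10 was also higher with delFG2 than with delFG1 in the arrays numbered 1, by 0.0375. The share of all probe sets with this order of group means was not counted. Over each step of that order, taken with the block, neighbours differed past the threshold as follows. No member passed between empty vector and delFG2, Hoxa5 and Hoxa7 passed between delFG2 and delFG1, and Hoxa9 passed between delFG1 and the full-length fusion. The last step of Hoxa5 and Hoxa7, -0.83 and -0.82 from full-length fusion to delFG1, was of about the same size as their called step from delFG1 to delFG2, -0.75 and -0.82, but missed the threshold with the block at limma adjusted p-values of 0.0502 and 0.0664. These comparisons share arrays, and whether the steps of one gene differ from those of another was not tested.

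The same values can be written as the share of the rise from empty vector to full-length fusion, on the log2 scale, that a mutant kept. It is given for the 7 members called higher with the block in that comparison. The same arrays thus picked these members and set their rise, which can overstate a rise and understate the share kept. Both parts of the share also use the same empty-vector arrays. With delFG1 this share was 61.5% for Hoxa3, 61.7% for Hoxa5, 63.3% for Hoxa6 and 61.9% for Hoxa7, and 36.3% for Hoxa9, 33.9% for Hoxa2 and 19.9% for Hoxa10. Computed from the arrays numbered 1 and from those numbered 2, the share was 68.4% and 56.1% for Hoxa5, 74.9% and 54.6% for Hoxa6, 71.3% and 51.9% for Hoxa7, and 45.7% and 28.1% for Hoxa9. So in both sets of arrays Hoxa9 kept less of its rise than Hoxa5, Hoxa6 and Hoxa7, as did Hoxa10 with 21.97% and 17.2%. Whether the Hoxa9 probe set also reads the introduced fusion RNA was not tested, so its share may not be that of the mouse gene alone. Hoxa3 gave 76.8% and 49.2%, and Hoxa2, whose rise was small, 66.0% and 6.12%.

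With delFG2 the share was 35.9% for Hoxa6, 26.9% for Hoxa5, 23.6% for Hoxa7, 19.0% for Hoxa9, 18.2% for Hoxa3, 12.4% for Hoxa10 and 8.62% for Hoxa2. The arrays numbered 1 gave the higher share for each of these 7 members, and those numbered 2 gave a share under 0 for Hoxa2 (-6.48%), Hoxa3 (-2.21%) and Hoxa10 (-7.09%). These shares describe 2 arrays per group, and the differences between members were not tested.

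**Figure D4:**
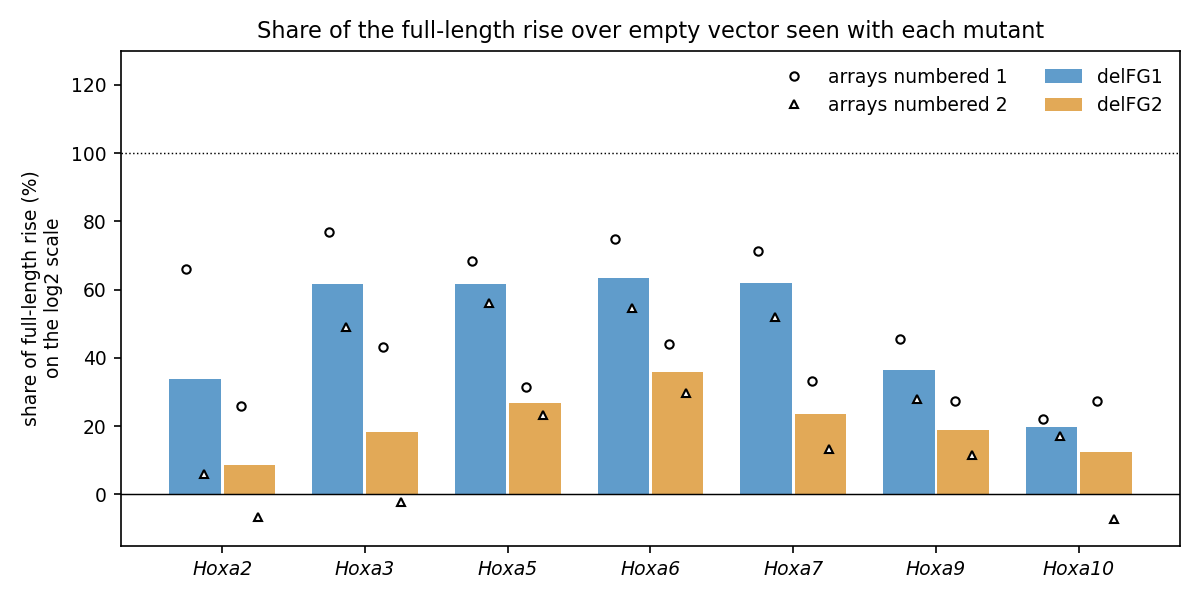
Share of the full-length rise over the empty vector, in percent on the log2 scale, seen with delFG1 and delFG2 for the 7 members that rose with the block; bars are shares of the group means, and circles and triangles those of the arrays numbered 1 and 2. The delFG1 bars of Hoxa3, Hoxa5, Hoxa6 and Hoxa7 stand between 61.5% and 63.3%, those of Hoxa9 and Hoxa10 at 36.3% and 19.9%, and each delFG2 bar is lower than the delFG1 bar of its gene.

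The genes next to the cluster on either side passed in no comparison of the full-length fusion with the empty vector. Skap2, a signalling adaptor gene next to the anterior end of the cluster, had levels of 10.12 and 10.12 with the empty vector and 10.30 and 10.30 with the full-length fusion, a difference of 0.18 that passed in neither fit (limma adjusted p = 0.568, and 0.198 with the block). Evx1, a homeobox gene past Hoxa13, differed by -0.03. Of 9 measured genes in a list of the flanking region, 0 passed by limma without the block in the full-length comparison, with 3 at an unadjusted p under 0.05 without the block and 4 with it, against 9.54% and 18.6% of all probe sets. With the block 1 of the 9, Tax1bp1, was higher by 0.35, against 2.18% of all probe sets. Snx10 and Creb5 were lower with it, by differences of -0.52 and -0.52, against 4.43%. The median difference of the list was 0.0045, against 0.99 for the members. Between delFG2 and the full-length fusion, Tax1bp1 was lower by a difference of -0.36 with the block (limma adjusted p = 0.0282), where 0.17% of all probe sets were called lower. Skap2 differed by -0.32 there and passed in neither fit.

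Inside the cluster, Mir196b, the gene of a microRNA between Hoxa9 and Hoxa10, had levels of 5.34 and 5.37 with the empty vector, 5.41 and 5.38 with delFG2, 5.44 and 5.46 with delFG1, and 5.496 and 5.59 with the full-length fusion. Hoxaas2, an antisense transcript gene of the cluster, had 5.56 and 5.36, 5.54 and 5.43, 5.81 and 5.38, and 5.56 and 5.65 in the same order. The full-length arrays of Mir196b stood above its others, and the delFG1 arrays of Hoxaas2 spanned those of delFG2 and overlapped the other groups. The difference of Mir196b between full-length fusion and empty vector was 0.19, with a limma adjusted p of 0.409 without the block and 0.176 with it. Both probe sets lay close to the level of 5.42 under which the dimmest 25% of probe sets fall, and both genes were chosen after their values were seen. The level of the mature microRNA was not measured here.

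The members differed in how closely they followed one another. Over the 8 arrays, which share their groups, the level of Hoxa5 correlated with the mean of the other members at r = 0.992, Hoxa7 at 0.988, Hoxa6 at 0.981, Hoxa3 at 0.978, Hoxa9 at 0.960, Hoxa2 at 0.938 and Hoxa10 at 0.893. Hoxa4 followed less closely at 0.695, Hoxa13 at 0.352 and Hoxa11 at -0.175. Among 152 other named genes whose group means span at least 1 on the log2 scale, those most like the mean profile of the members were Prr5l (r = 0.974), Ppm1e (0.950), Tifab (0.944), Erv3 (0.943), Hoxc6 (0.940), Btla (0.921), Mef2c (0.913), Ly86 (0.885), Cd28 (0.861) and P2rx3 (0.857). Hoxc6, a homeobox gene of another HOX cluster, had means of 5.29 with the empty vector, 5.27 with delFG2, 5.75 with delFG1 and 6.35 with the full-length fusion.

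The partners with which HOX proteins bind DNA were set beside the members. Pbx3, a TALE homeodomain cofactor of HOXA9, had levels of 8.75 and 8.65 with the empty vector, 8.72 and 8.70 with delFG2, 8.75 and 8.81 with delFG1, and 10.63 and 10.24 with the full-length fusion. The full-length fusion exceeded the empty vector by 1.74 (limma adjusted p = 0.00276), and delFG1 and delFG2 differed from the full-length fusion by -1.66 and -1.73 (0.0104 and 0.00740). Against the empty vector it differed by 0.08 with delFG1, where Hoxa5, Hoxa6 and Hoxa7 differed by 1.33, 1.43 and 1.33. Meis1, the cofactor that speeds leukaemia by Hoxa9, differed by 0.80, -0.82 and -0.72 in the same 3 comparisons, and passed only with the block, at limma adjusted p-values of 0.00109, 0.0143 and 0.0120. With delFG1 it differed from the empty vector by -0.03, and whether the cofactors differ from the Hoxa genes in this respect was not tested. Of 8 measured cofactor genes, 1 was higher with the full-length fusion without the block and 2 with it, against 0.101% and 2.18% of all probe sets, and the median of the list was 0.04.

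Known regulators of the cluster were read from the same arrays. Kmt2a, which encodes MLL and is named here because the series title names it, differed by -0.15 between full-length fusion and empty vector, with a limma adjusted p of 0.885. Of 19 genes for MLL, its complex and related coactivators, 0 passed by limma without the block in that comparison, with 5 at an unadjusted p under 0.05 without the block and 7 with it, against the same 9.54% and 18.6%. With the block 1 of the 19 was called higher, against 2.18% of all probe sets. This was Dpy30, a subunit of MLL-type methyltransferase complexes, with 0.25 (limma adjusted p = 0.0448). Ep300 and Crebbp, coactivator genes of the list, differed by -0.34 and -0.37 and passed in neither fit (limma adjusted p with the block 0.0721 and 0.119). The median of the list was -0.09. Of 16 Polycomb genes 0 passed by limma in either fit, with 0 at an unadjusted p under 0.05 without the block and 1 with it. All 3 Cdx genes, homeobox regulators of Hox genes, likewise failed both fits, with differences between -0.02 and 0.07 and 0 at an unadjusted p under 0.05.

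Genes known to follow HOXA9 and MEIS1 in myeloid leukaemia were taken as a list of 18, of which 17 were measured. In the first comparison 1 was higher without the block, and 7 were higher and 2 lower with it, with a median of 0.29. The shares called over all probe sets were 0.101% (higher, no block), 2.18% (higher, block) and 4.43% (lower, block). Eya1, a transcriptional coactivator, was higher by 2.43 and was lower than with the full-length fusion by -2.85 with delFG1 and -2.84 with delFG2, all past the limma threshold (adjusted p = 0.000761, 0.000196 and 0.000199). Mef2c, a transcription factor of myeloid progenitors, differed by 1.08, -0.79 and -0.91, and passed with the block alone (limma adjusted p = 0.000215, 0.0216 and 0.00435). Mycn, a proto-oncogene, differed by 0.50, -0.03 and -0.12, and passed with the block in the first of these (adjusted p = 0.0192).

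Markers of mature myeloid cells were read from the same arrays. The summed intensity of 14 mature neutrophil genes was 53958 and 67490 with the empty vector, 40512 and 53083 with the full-length fusion, 39748 and 54561 with delFG1, and 53540 and 63575 with delFG2. Arrays numbered 2 were higher in each group, as were 13 of the 14 genes. Against the empty vector, 0 of the 14 passed by limma with the full-length fusion without the block, where 0.0229% of all probe sets were called lower, and 9 were lower with it, where 4.43% were. In delFG2 cells 0 were called without the block, as were 0% of all probe sets called higher, and 7 were higher than with the full-length fusion with it, against 0.298%. In delFG1 cells 0 differed past the threshold from the full-length fusion in either fit, where 2 of all 21789 probe sets passed without the block and 17 with it. The unadjusted p was under 0.05 for 0 of the 14 without the block and 3 with it, against 2.07% and 4.07% of all probe sets.

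Other marker lists gave ranges as follows. The sum of 12 monocyte and macrophage genes was 12232 and 15917 with the empty vector and between 8903 and 12826 in the other groups, and C1qc was dim. The sum of 9 progenitor genes lay between 35925 and 40836 over all arrays, and Cd34, a progenitor surface protein, differed by 0.86, -0.25 and -0.55 in the 3 main comparisons. It passed only with the block in the first and last (limma adjusted p = 0.000189 and 0.0139). Of the 9 progenitor genes, 0 passed without the block in the first comparison. With the block 2 were higher (Cd34 and Prtn3) and 1 lower (Spi1, -0.24), against 2.18% and 4.43% of all probe sets. Gata2 and Ctsg differed by -0.04 and 0.19 there and passed in neither fit. Of 8 lymphoid genes Cd3g, Cd79a and Ebf1 were among the dimmest 25% of probe sets. The sum of 7 erythroid and megakaryocyte genes was 2794 and 2703 with the empty vector and 1931 and 1679 with the full-length fusion. That of 8 mast cell and eosinophil genes was 16617 and 22994 against 13236 and 17527. Without the block 1 of the 7 was lower, against 0.0229% of all probe sets, and 0 of the 8 passed. With it 4 of the 7 and 6 of the 8 were lower, against 4.43%. Gp9 of the 7 and Ms4a2 of the 8 were higher with it, by 0.37 and 0.48, against 2.18%. The part of these differences in the Hoxa results was not tested, and in bulk RNA fewer cells of a type and less RNA per cell cannot be told apart.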

How the data were processed

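RNA was purified on RNeasy columns and hybridised to 8 GeneChip arrays with a whole-transcript labelling kit, per the labels' protocols. The authors deposited 1 table of linear intensity values for 28853 probe sets; their summary and normalisation are not described in the sources used here. Genes were named from the platform annotation: 21789 probe sets carry 1 symbol and were tested, 1621 carry several and 5443 none. Where a list gene has several probe sets, the one with the highest mean was used.

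Values were analysed as log2(intensity + 1) with limma 3.58.1 in R 4.3.3 (lmFit and eBayes with an intensity trend), fitting all 8 arrays with 4 group means and no block (4 residual and 4.62 prior degrees of freedom). P-values are two-sided and were adjusted by Benjamini-Hochberg over all 21789 probe sets in each of 6 comparisons, with a threshold of 0.05. The labels number the arrays of every group 1 and 2. After subtraction of group means, same-numbered arrays correlated over genes at r = 0.401 to 0.640 in all 6 pairs of groups, so the numbers were taken to pair the arrays and a fit with the number as a block (3 residual and 7.78 prior degrees of freedom) is given beside the first where a call differs. The labels do not say what the numbers mean.

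The members and lists were chosen with earlier results of these data known. The named genes are all members, the nearest measured neighbours of the cluster, and the 10 genes most like the mean profile of the members. To these come up to 3 genes per list with the smallest p in the main comparisons, not all of which are printed. Further list genes are named because they passed with the block (Snx10, Prtn3, Spi1 and Gp9) or were dim. Kmt2a, Mir196b and Hoxaas2 were added as stated where they appear. The fit was tested on simulated data, and median centring and quantile normalisation with the block were added after seeing the data. Alternatives were the block, median centring, quantile normalisation, a pseudocount of 16, leaving out the dimmest 25% of probe sets, no intensity trend, a fit of the compared groups alone, and leaving out each array. The number of arrays limits the precision, and the table holds no detection calls. Promoter windows came from RefSeq, and probe sets are given without coordinates, because the array's build is unknown here.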

Additional observations from a re-analysis of the deposited data

How the results depend on the processing

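Of 1494 member differences recomputed under the alternatives, 1302 kept their direction and their side of the threshold, 38 lost their call, 111 gained one and 43 changed sign. None of the 43 was past the threshold in either setting, and the largest was 0.0949 in size. The count of members called moved as follows. For full-length fusion and empty vector it was 5 by limma, 4 after quantile normalisation and 4 without the intensity trend, Hoxa3 being lost in both, and 7 with the block in each of its 3 forms. For delFG1 against the full-length fusion it was 0 by limma and 1 with the replicate block (Hoxa9). It was 1 with the block after quantile normalisation and 3 with the block after median centring. Over all probe sets the calls were 2, 17, 15 and 25 in the same order of settings. For delFG2 against the full-length fusion the members called were 2, then 6 with the block and 1 without the intensity trend. They were 5 and 6 with the block after quantile normalisation and median centring. All probe sets gave 6, 102, 3, 84 and 127 calls in the same order of settings. For delFG1 against the empty vector the members called were 3, then 5 with the block in each of these 3 forms and 0 without the trend. All probe sets gave 28 calls, then 1333, 1322 and 1435 with the block (alone, after quantile normalisation and after median centring), and 5 without the trend. For delFG2 against the empty vector the members called were 0, and 1 with the block after median centring, where all probe sets gave 1 and 173 calls. Between the mutants the members called were 0, and 2 with the block in each of its 3 forms. All probe sets gave 0 calls, then 117, 79 and 115 with the block (alone, after quantile normalisation and after median centring). The cause of these moves was not tested. The 2 fits that join a scaling with the block were chosen after seeing the data.

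With 1 array left out, over fits with and without the block, the count was 3 to 7 for the full-length fusion set against empty vector, 0 to 3 for delFG1 and 0 to 6 for delFG2 against the full-length fusion, 0 to 5 for delFG1 and 0 to 1 for delFG2 against the empty vector, and 0 to 2 between the mutants. A lone remaining array was assumed to vary like the other groups. The calls over all probe sets in these fits are not given here, so these counts stand without a share beside them.

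The sign was unsettled for differences near 0. Hoxa4 in delFG1 against the full-length fusion was 0.0090 after median centring and 0.016 after quantile normalisation, with and without the block, and -0.097 to 0.082 with 1 array left out. Left-out arrays gave these ranges for Hoxa11: -0.053 to 0.030 (full-length fusion against empty vector), -0.0100 to 0.120 (delFG1 against full-length fusion), -0.029 to 0.113 (delFG2 against full-length fusion), -0.022 to 0.108 (delFG1 against empty vector), -0.040 to 0.102 (delFG2 against empty vector) and -0.084 to 0.058 (delFG2 against delFG1). For Hoxa13 they were -0.042 to 0.165, -0.064 to 0.144 and -0.112 to 0.095 in the first 3 of these, and -0.013 to 0.119 and -0.115 to 0.017 in the last 2. In delFG2 against the empty vector they were -0.032 to 0.108 for Hoxa2, -0.048 to 0.542 for Hoxa3, -0.016 to 0.072 for Hoxa4 and -0.019 to 0.174 for Hoxa10. Between the mutants they were -0.236 to 0.0097 for Hoxa2 and -0.144 to 0.049 for Hoxa10.

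With 2 arrays a group, differences such as those of Hoxa2 and Hoxa10 lie near the limit of what this design can call. Hoxa11 was left out where the dimmest 25% of probe sets were removed, so that setting gave no value for it.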
